A study of Mus musculus with 27 samples.

Results

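The lipid droplet proteins and lipolysis genes described here are 10 genes chosen by symbol from the 17655 genes of the deposited liver tables: Plin2, Plin4 and Plin5, Cidea, Cideb and Cidec, Pnpla2 and its inhibitor G0s2, Lpin1, and Pparg. All 10 were found, each on 1 row. The libraries come from 27 livers, each from a separate mouse, with 3 mice per condition and 9 conditions. All mice, controls included, were Kdm5b fl/fl, so that Cre recombinase removes Kdm5b, a demethylase of histone H3 lysine 4. Mice that received the control vector (AAV8-control on the WDA labels, AAV-control on the resolution labels) are called WT, those that received AAV8-CMV-Cre or AAV-CMV-Cre are called KO, and those that received AAV8-TBG-Cre are called HepKO. The TBG promoter drives Cre in hepatocytes, whereas the CMV promoter is not restricted to a cell type. WDA pairs a western diet with alcohol given as drinking water. WT and KO mice of both sexes and HepKO females were labelled with the vector and 8 weeks of WDA. The resolution (Res) mice were WT and KO females and males labelled with 16 weeks of WDA, then the vector, then 4 weeks of resolution. By the study's methods, mice entering resolution were moved to chow and plain water, so the western diet ended together with alcohol. Those methods also describe longer WDA feeding than the 8 weeks on the WDA labels, which leaves the length of feeding of the WDA mice uncertain. The labels give no age. Titles of all WDA libraries begin with 11 and those of all Res libraries with 12, a number the labels do not explain. Stage, end of the western diet, end of alcohol, length of feeding, order of vector and diet, and this number therefore cannot be told apart.

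Hepatocytes store triglyceride in droplets bounded by a phospholipid monolayer. Perilipins (the Plin proteins) coat the droplet and limit or admit lipases, CIDE proteins sit where droplets touch and promote their fusion into larger droplets or the lipidation of VLDL, and ATGL, encoded by Pnpla2, starts triglyceride breakdown. Lpin1 makes the diacylglycerol used for triglyceride synthesis and also acts as a transcriptional coactivator, and Pparg, a nuclear receptor that is low in lean liver, drives droplet protein genes in fatty liver.

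Summed counts per library ranged from 14634602 to 19388251. Values per mouse are CPM, counts divided by the library total after TMM scaling over the 27 libraries. In bulk liver, fewer cells of a type and less RNA per cell cannot be told apart. The hepatocyte markers (Alb, Ttr, Apoa1, Serpina1c, Cps1 and Hnf4a) had at least 434.8 CPM each in all 27 libraries. Kdm5b, the targeted gene, was lower on average with Cre in each of the 5 comparisons with WT. The log2 fold change ranged from -0.16 (KO WDA males) to -0.98 (HepKO WDA females), with no adjusted p-value under 0.05 in the edgeR quasi-likelihood test. Its CPM was 14.2, 8.30 and 17.4 in HepKO females against 21.5, 25.2 and 31.2 in WT WDA females. KO WDA female mouse 1 had 24.1 CPM of Kdm5b and lay within the WT range. Kdm5b itself was lower at Res than on WDA, by 0.57 ± 0.10 on the log2 scale over 24 WT and KO livers (edgeR adjusted p-value 0.000247). A few libraries stood apart from their groups. Summed cholangiocyte markers were 469.5 CPM in WT WDA female mouse 7 and 533.1 CPM in KO WDA male mouse 17, with a median of 27.4 CPM over the 27 libraries. Spp1 alone gave 479.5 CPM of the sum in mouse 17. Stellate and matrix markers summed to 429.9 CPM in female mouse 7 and 484.4 CPM in male mouse 17, with a median of 145.1 CPM. Female mouse 7 also had the highest macrophage marker sum, 789.2 CPM against a median of 361.0 CPM. KO Res male mouse 5 carried the female-type transcript Cyp3a41a at 426.5 CPM, against 0 to 19.6 CPM in the other 11 males, and its Y-linked Ddx3y was 37.9 CPM against 47.7 to 80.4 CPM. Cholangiocyte marker sums were also high in WT Res female mouse 13 (237 CPM), KO Res male mouse 5 (199 CPM) and WT Res male mouse 9 (156 CPM).

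Compared per length of transcript, Plin2 led. The median FPKM over 27 libraries was 539 for Plin2, the ubiquitous droplet coat. It was 276.5 for G0s2, which inhibits ATGL, 197 for Cideb, 73.6 for Pnpla2 and 68.2 for Plin5, a coat protein of oxidative tissues that ties droplets to mitochondria. Cidec, the droplet fusion protein also called FSP27, had a median of 43.0 FPKM. Lpin1 had 18.6, Plin4 11.9 and Pparg 8.37 FPKM, and Cidea, best known from brown fat, had 0.65 FPKM. In every mouse Plin2, G0s2 and Cideb lay above the highest Pparg value of 23.7 FPKM, while neighbours such as Pnpla2 (40.0 to 156 FPKM over the mice) and Plin5 (29.3 to 117 FPKM) overlapped widely. Spread among mice of a condition also differed by gene. The median coefficient of variation of CPM within a condition was 8.01% for Pnpla2 and 10.7% for Cideb, and 44.8% for Lpin1 and 80.1% for Cidea. Over the conditions, the mean CPM of Lpin1 varied 17.3-fold, that of Cidec 7.68-fold and that of Plin2 1.71-fold.

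**Figure D1:**
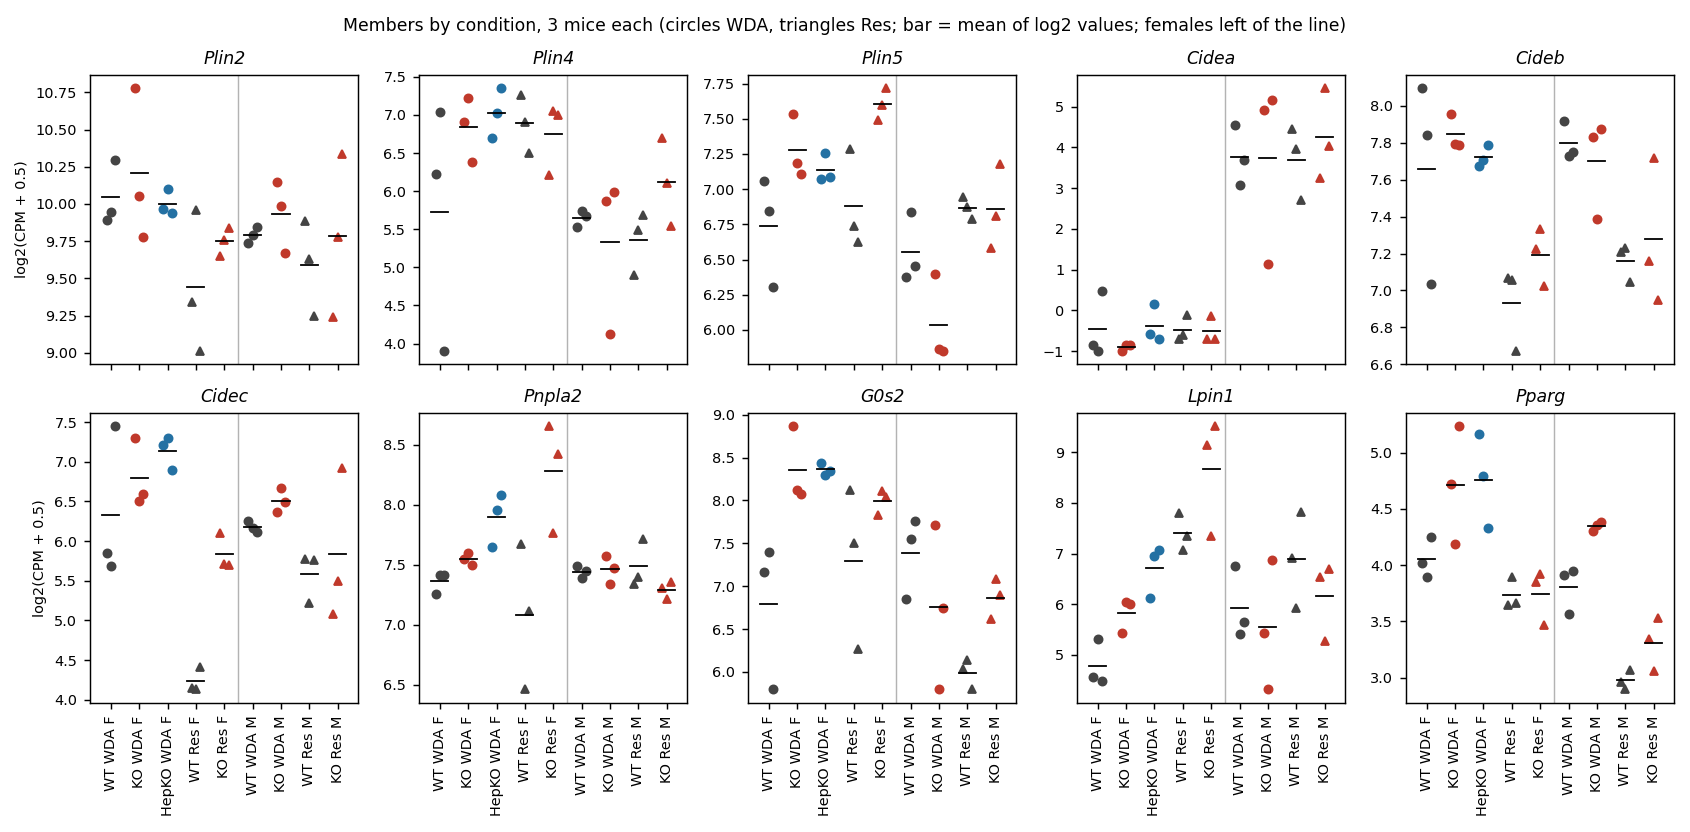
Level of each of the 10 genes in every mouse, as log2(CPM + 0.5) on the vertical axis, for the 9 conditions on the horizontal axis; circles are WDA mice, triangles Res mice, grey WT, red KO, blue HepKO, and the bar is the mean of the log2 values of 3 mice. Cidea is near the floor of the plot in the 15 females and higher in the 12 males, and Lpin1 is highest in KO Res females.

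The first comparison asks which of these genes differ between mice on WDA and mice after 4 weeks without alcohol and western diet. In WT and KO mice together, 12 Res against 12 WDA livers, Cidec, Cideb and Pparg fell and Lpin1 and Plin5 rose. These are 5 of 10 members called, where 29.5% of the 13519 genes tested were called. The fit had sex and vector as covariates, and HepKO mice were left out. The median log2 fold change over the members was -0.15, beside 0.00 over all genes tested.

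Cideb, which in liver aids the lipidation of VLDL as well as droplet fusion, had 131, 225 and 274 CPM as lowest, median and highest values on WDA and 101, 138 and 210 CPM at Res. It fell by 0.62 ± 0.11 (log2, SE), and edgeR gave an adjusted p-value of 0.000196. Pparg had 11.3, 18.1 and 37.3 CPM on WDA and 6.94, 10.8 and 14.7 CPM at Res, so all 12 Res mice lay below the WDA median. It fell by 0.83 ± 0.11 on the log2 scale (edgeR adjusted p-value 1.96e-05). Cidec had 50.8, 85.8 and 175 CPM on WDA and 17.01, 48.1 and 121 CPM at Res. It fell by 1.08 ± 0.26 on the log2 scale (edgeR adjusted p-value 0.00313). For all 3 genes the ranges of the stages overlapped over the 24 mice.

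Lpin1 went the other way. It had 19.5, 42.6 and 117 CPM on WDA and 38.2, 148 and 735 CPM at Res, a log2 rise of 1.78 ± 0.39 (edgeR adjusted p-value 0.00169). Plin5 rose by 0.40 ± 0.12 on the log2 scale (edgeR adjusted p-value 0.0122), from a median of 100.5 CPM to 119.6 CPM. The other 5 members did not pass. The log2 fold change was -0.34 ± 0.14 for Plin2 (edgeR adjusted p-value 0.0687), -0.34 ± 0.27 for G0s2, 0.26 ± 0.27 for Plin4, 0.11 ± 0.13 for Pnpla2 and 0.04 ± 0.46 for Cidea. All 5 calls were made in each of the 24 fits that left out 1 library. Without WT WDA female mouse 7, KO WDA male mouse 17 and KO Res male mouse 5, a choice made after seeing the data, the 5 remained called, with log2 fold changes of -0.82 for Cidec, -0.70 for Cideb, -0.81 for Pparg, 1.74 for Lpin1 and 0.34 for Plin5. More genes were called in that fit, 5370 of 13453 tested. The 5 members also remained called without the 5 libraries highest in cholangiocyte markers, likewise chosen after seeing the data, with -0.84, -0.65, -0.84, 1.63 and 0.39 in the same order. That fit called 5094 of 13131 genes tested. Lymphocyte markers moved with the stage. Of 7 tested, 6 were higher at Res, and their summed level ranged from 13.6 to 35.8 CPM in the WT and KO WDA mice and from 17.98 to 42.6 CPM in the Res mice. Endothelial markers were higher in 2 of 6, macrophage and hepatocyte markers in 1 of 10 and 1 of 6, and 0 of 6 cholangiocyte, 0 of 9 stellate and matrix and 0 of 5 brown fat markers were called in this edgeR fit. Their part in the result was not tested.

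Shown here are the bases upstream of the starts of the 5 genes called over the 24 livers, so that letters can be compared. The sequences are RefSeq's for GRCm38.p6, the build of the deposited data. Each runs 5′ to 3′ on the gene's strand, up to the start or up to the first exon that GENCODE vM21 annotates in the window. Letters in capitals mark the hexamer AGGTCA or its reverse complement, the core that nuclear receptors such as PPARγ bind in pairs. Pparg has 3 listed starts, and the most downstream is shown, whose window holds no annotated exon. For Cidec and Plin5, with 2 listed starts each, the more upstream is shown. Lpin1 has 1 listed start, which lies inside the gene span given below.
Cidec (chr6:113435761-113436010, minus strand): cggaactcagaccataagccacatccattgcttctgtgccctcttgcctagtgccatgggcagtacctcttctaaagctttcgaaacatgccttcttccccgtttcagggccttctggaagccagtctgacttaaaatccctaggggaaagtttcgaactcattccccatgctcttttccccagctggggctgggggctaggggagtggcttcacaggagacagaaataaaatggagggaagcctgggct
Cideb (chr14:55758459-55758674, minus strand): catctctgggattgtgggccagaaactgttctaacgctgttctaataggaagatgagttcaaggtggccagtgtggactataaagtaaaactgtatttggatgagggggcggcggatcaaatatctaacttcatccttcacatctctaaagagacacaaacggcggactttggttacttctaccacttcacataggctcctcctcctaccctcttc
Pparg (chr6:115421816-115422065, plus strand): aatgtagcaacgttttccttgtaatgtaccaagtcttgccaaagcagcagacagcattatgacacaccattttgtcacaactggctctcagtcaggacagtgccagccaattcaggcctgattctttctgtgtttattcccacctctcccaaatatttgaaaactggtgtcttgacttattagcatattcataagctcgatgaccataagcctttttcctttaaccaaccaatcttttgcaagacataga
Lpin1 (chr12:16610967-16611216, minus strand): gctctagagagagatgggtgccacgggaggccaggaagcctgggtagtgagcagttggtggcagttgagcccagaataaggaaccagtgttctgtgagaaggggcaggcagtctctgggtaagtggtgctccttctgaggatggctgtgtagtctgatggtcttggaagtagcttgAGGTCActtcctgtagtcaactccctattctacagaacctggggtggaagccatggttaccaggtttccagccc
Plin5 (chr17:56117597-56117798, minus strand): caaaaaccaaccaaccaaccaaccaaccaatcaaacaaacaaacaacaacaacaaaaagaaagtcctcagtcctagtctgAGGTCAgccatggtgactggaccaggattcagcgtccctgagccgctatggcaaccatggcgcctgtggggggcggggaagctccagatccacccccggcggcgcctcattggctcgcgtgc
In the printed bases AGGTCA stands in Lpin1 from 74 and in Plin5 from 170 bases before the start. Its presence did not follow direction, since Pparg, which fell, holds it at its other 2 starts. The search covered both strands of 250 bases before each of 13 listed starts of 9 members. It found AGGTCA at 5 starts of 4 members (Plin2, Plin5, Pparg at its other 2 starts, and Lpin1), and 14.02% of all 32851 listed promoters hold it in the same window. AGGTCANAGGTCA, the same hexamer repeated after any base, was at 0 of the 13 starts and in 0.0335% of all promoters, and the E-box CACGTG was at 0 of the 13 and in 6.02% of all. A match describes letters only. No promoter entry was listed for Cidea.

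The genes lie on 8 chromosomes. In GRCm38.p6, Cidec (14311) spans chromosome 6 from 113424634 to 113435760, Pparg (19016) chromosome 6 from 115360879 to 115490404, Lpin1 (14245) chromosome 12 from 16535669 to 16653903 and Cideb (12684) chromosome 14 from 55754052 to 55758424. Plin4 (57435) and Plin5 (66968) are neighbours on chromosome 17, from 56100587 to 56109948 and from 56111597 to 56117606. Plin2 (11520) lies on chromosome 4 from 86626910 to 86670217, G0s2 (14373) on chromosome 1 from 193272160 to 193273188, Pnpla2 (66853) on chromosome 7 from 141455188 to 141460743 and Cidea (12683) on chromosome 18 from 67343564 to 67367794. All 10 are protein coding. Cideb overlaps Nop9 and Ltb4r2, and Plin4 overlaps Hdgfl2. Whether the counting used strand is not given in the sources used here, so reads from these overlaps may be shared.

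Within each sex and vector the stage difference was not even. In WT females no gene was called by edgeR (0% of 12603 genes tested, 13.6% at an unadjusted p under 0.05), and DESeq2 called 387 genes. Lpin1 had 23.2, 39.5 and 21.8 CPM on WDA and 223, 162 and 133 CPM at Res. The groups did not overlap, and the log2 difference was 2.62 ± 0.31 (edgeR adjusted p-value 0.184). Cidec had 57.2, 50.8 and 175 CPM on WDA, the last in mouse 7, and 17.2, 20.8 and 17.01 CPM at Res. Every Res female lay below every WDA female, with a log2 difference of -2.36 ± 0.50 (edgeR adjusted p-value 0.214). Pparg, from 14.4 to 18.5 CPM on WDA and 12.1 to 14.4 CPM at Res, was the third of 3 members among 9 tested whose groups did not overlap, where 20.4% of all genes tested did not overlap. Without WDA mouse 7 the Cidec difference was -1.55 with an edgeR adjusted p-value of 0.0397. DESeq2 called Lpin1 and Cidec with all mice kept. The other 6 members tested lay between -0.78 (Cideb) and 0.73 (Plin4) on the log2 scale.

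KO females gave the largest number of calls among the single-sex comparisons, with 5 of 9 members tested, where 20.4% of 12470 genes tested were called. Lpin1 had 42.5, 65.8 and 64.1 CPM on WDA and 562, 163 and 735 CPM at Res. All Res values were higher, and the log2 rise was 3.08 ± 0.46 (edgeR adjusted p-value 0.00312). Pnpla2, the triglyceride lipase, had 187, 193 and 180 CPM on WDA and 403.5, 217 and 344 CPM at Res, a log2 rise of 0.78 ± 0.19 (edgeR adjusted p-value 0.0216). Mice 2 and 4 carried most of both rises and mouse 3 the least. Cidec had 158, 90.2 and 95.8 CPM on WDA and 68.4, 52.0 and 51.5 CPM at Res and fell by 1.002 ± 0.21 on the log2 scale (edgeR adjusted p-value 0.0124). Cideb fell by 0.65 ± 0.12 and Pparg by 1.04 ± 0.24 on the log2 scale (edgeR adjusted p-values 0.00594 and 0.0175). Plin2, Plin4, Plin5 and G0s2 lay between -0.52 and 0.32 and did not pass. With the spread shared by all conditions the adjusted p-value of Cidec was 0.107 and the other 4 remained called. Without Res mouse 4, Cideb and Lpin1 remained called, and the adjusted p-values were 0.056 for Cidec, 0.0731 for Pparg and 0.0789 for Pnpla2.

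In WT males 3 of 10 members fell and none rose, where 11.0% of 12408 genes tested were called. G0s2 had 115, 186 and 217 CPM on WDA and 64.8, 70.2 and 55.3 CPM at Res, a fall of 1.43 ± 0.21 on the log2 scale (edgeR adjusted p-value 0.01). Pparg had 14.6, 11.3 and 14.9 CPM on WDA and 7.30, 6.94 and 7.89 CPM at Res, the lowest group mean of the 9. It fell by 0.86 ± 0.15 on the log2 scale (edgeR adjusted p-value 0.0145), and Cideb fell by 0.62 ± 0.10 (edgeR adjusted p-value 0.0107). The groups did not overlap for these 3 nor for Cidec, 4 of 10 members, where 36.0% of all genes tested did not overlap. Cidec had 76.1, 71.0 and 68.8 CPM on WDA and 54.3, 36.8 and 54.0 CPM at Res, and its log2 difference of -0.55 ± 0.15 had an edgeR adjusted p-value of 0.0561. DESeq2 gave Cidec 0.0109, and edgeR without the filter gave 0.0433. Without Res mouse 9, whose cholangiocyte markers were high, edgeR called it as well (-0.64, adjusted p-value 0.0224). With the shared spread only Pparg of these was called. The 3 calls were lost without WDA mouse 21, with adjusted p-values of 0.0548 for Cideb, 0.0529 for G0s2 and 0.0764 for Pparg. Lpin1 had 107, 41.8 and 49.5 CPM on WDA and 120, 60.0 and 226 CPM at Res, which overlap, with a log2 difference of 1.06 ± 0.50 (edgeR adjusted p-value 0.194).

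In KO males no gene was called (0% of 12747, 6.43% at an unadjusted p under 0.05), and DESeq2 called 79. Pparg had 19.3, 19.96 and 20.4 CPM on WDA and 9.68, 7.81 and 11.1 CPM at Res, without overlap, and the log2 difference of -1.04 ± 0.17 had an edgeR adjusted p-value of 0.275. DESeq2 gave 0.00145. Plin5 had 84.0, 57.8 and 57.1 CPM on WDA and 95.2, 112 and 145 CPM at Res, with a log2 difference of 0.84 ± 0.24 (edgeR adjusted p-value 0.636). These were the 2 of 10 members without overlap, where 12.9% of all genes tested had none. Lpin1 had 42.7, 19.5 and 117 CPM on WDA and 92.7, 38.2 and 103 CPM at Res, ranges that overlap widely. The other 8 members lay between -0.44 (Cidec) and 0.67 (Plin4). Mice 17 and 5, named above, are in this comparison, and without either no member was called.

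**Figure D2:**
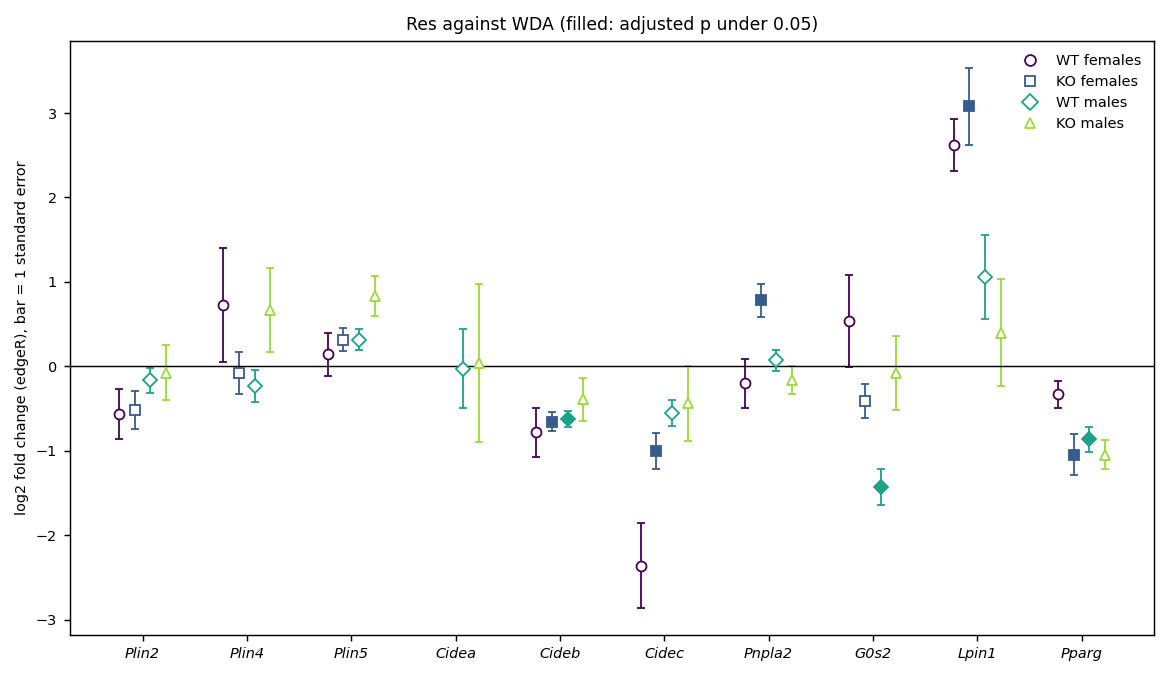
Log2 fold change of Res against WDA (vertical axis) for the 10 genes in WT and KO females and males, each with 1 standard error; filled symbols have an edgeR adjusted p-value under 0.05. Pparg, Cideb and Cidec lie below 0 in all 4 comparisons, and Lpin1 lies between 0.40 and 3.08.

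Whether the stage difference depended on sex was tested as an interaction over 24 libraries. No member passed, where 0.155% of 13519 genes tested did. The Lpin1 change was lower in males than in females by 2.14 ± 0.59 on the log2 scale, with an unadjusted p-value of 0.00154 and an edgeR adjusted p-value of 0.215. The Cidec change was higher in males by 1.16 ± 0.45 (edgeR adjusted p-value 0.552).

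The next comparison asks how KO and WT livers differed at Res, where the vector was given after the WDA period. It shares its WT and its KO mice with the stage comparisons above. In females the clearest difference was in Cidec. WT mice had 17.2, 20.8 and 17.01 CPM and KO mice had 68.4, 52.0 and 51.5 CPM, so the lowest KO value, 51.5 CPM, stood against a highest WT value of 20.8 CPM. The log2 difference was 1.60 ± 0.16, with an edgeR adjusted p-value of 0.0794. None of the 12577 genes tested had a smaller one, and genes can share an adjusted p-value. No gene was called (0%), while 19.2% had an unadjusted p under 0.05 and DESeq2 called 591 genes. DESeq2 called Cidec with an adjusted p-value of 1.6e-13, and edgeR with a spread shared by all 9 conditions gave 0.0246.

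Pnpla2 had 204, 138 and 87.8 CPM in WT Res females and 403.5, 217 and 344 CPM in KO Res females, a log2 difference of 1.13 ± 0.32 (edgeR adjusted p-value 0.139). Plin5 had 155, 98.0 and 106 CPM in WT and 179, 193.5 and 210.5 CPM in KO, a log2 difference of 0.66 ± 0.18 (edgeR adjusted p-value 0.129). Cidec, Pnpla2 and Plin5 were the 3 of 9 members whose groups did not overlap, where 26.2% of all genes tested did not. Lpin1 had 223, 162 and 133 CPM in WT and 562, 163 and 735 CPM in KO. These overlap in mouse 3, and the log2 difference was 1.45 ± 0.48 (edgeR adjusted p-value 0.170). Without WT mouse 1, which had the highest Pnpla2 and Plin5 of its group, Cidec, Plin5 and Pnpla2 were called, with log2 differences of 1.55, 0.88 and 1.46 and edgeR adjusted p-values of 0.0123, 0.0239 and 0.0447. Each was called in only 1 of the 6 fits that left out a mouse, and the share of all genes called in that fit is not given here. The edgeR adjusted p-value rose to 0.314 for Cidec and 0.394 for Pnpla2 without KO mouse 2. It rose to 0.366 for Plin5 without KO mouse 4. Cideb, Plin2, Plin4, G0s2 and Pparg lay between -0.17 and 0.48 on the log2 scale, and Cidea was too low to be tested. Of the cholangiocyte markers, WT Res mouse 13 had a sum of 237 CPM and the KO Res females 19.6 to 27.9 CPM. The 3 tested markers had a median log2 difference of -2.02, with none called. Without mouse 13 the Cidec difference was 1.71 (edgeR adjusted p-value 0.102).

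In Res males the values of Cidec were 54.3, 36.8 and 54.0 CPM in WT and 33.3, 44.7 and 121 CPM in KO. They overlap, and mouse 11 alone was above the WT range. The log2 difference of Cidec was 0.47 ± 0.43 and, without mouse 11, -0.32. Without mouse 5, which carried female-type transcripts, it was 0.77, and that of Plin4 was 0.44 in place of 0.82. G0s2 was the only member whose KO and WT Res males did not overlap, with 64.8, 70.2 and 55.3 CPM in WT and 97.5, 135 and 119 CPM in KO. Its log2 difference was 0.90 ± 0.17 (unadjusted p-value 0.000477, edgeR adjusted p-value 1). Of all genes tested, 4.64% did not overlap. DESeq2 gave G0s2 an adjusted p-value of 0.00447. The other 9 members lay between -0.78 (Lpin1) and 0.82 (Plin4) on the log2 scale. No gene was called by edgeR in males (0% of 12620, 1.45% at an unadjusted p under 0.05, 7 genes by DESeq2), nor in both sexes together (0% of 13178, 7.85% at an unadjusted p under 0.05, 6 genes by DESeq2). Over both sexes Cidec differed by 1.03 ± 0.31 on the log2 scale (edgeR adjusted p-value 0.630) and G0s2 by 0.69 ± 0.23 (edgeR adjusted p-value 0.630). As an interaction, the KO difference in Pnpla2 was lower in males than in females by 1.33 ± 0.39 on the log2 scale (edgeR adjusted p-value 0.272), in Lpin1 by 2.24 ± 0.79 (0.319) and in Plin5 by 0.65 ± 0.26 (0.369). Without male mouse 5 these differences were -1.34, -2.39 and -0.52. None of the 13178 genes passed this test in edgeR (0%, 11.5% at an unadjusted p under 0.05, 78 genes by DESeq2).

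On WDA, where the vector came with the diet, no gene was called by edgeR between KO and WT in females (0% of 12397, 3.11% at an unadjusted p under 0.05, 8 genes by DESeq2) or in males (0% of 12419, 7.71% at an unadjusted p under 0.05, 17 genes by DESeq2). G0s2 had 143, 169 and 55.3 CPM in WT WDA females, the last in mouse 7, and 467, 277 and 269 CPM in KO WDA females. Every KO value was higher, with a log2 difference of 1.45 ± 0.42 (edgeR adjusted p-value 0.978), and 1.12 without mouse 7. Lpin1 had 23.2, 39.5 and 21.8 CPM in WT and 42.5, 65.8 and 64.1 CPM in KO, a log2 difference of 1.01 ± 0.27 (edgeR adjusted p-value 0.978). G0s2, Lpin1, Plin5 and Pnpla2 were the 4 of 9 members whose groups did not overlap, where 8.81% of all genes tested did not. The other 5 members tested lay between 0.11 (Cideb) and 0.71 (Pparg). In WDA males, Pparg had 14.6, 11.3 and 14.9 CPM in WT and 19.3, 19.96 and 20.4 CPM in KO, a log2 difference of 0.56 ± 0.13 (edgeR adjusted p-value 0.588). Cidec, from 68.8 to 76.1 CPM in WT and 81.9 to 101 CPM in KO, differed by 0.35 ± 0.12 (edgeR adjusted p-value 0.588). Pparg and Cidec were the 2 of 10 members without overlap, where 16.3% of all genes tested had none, and the other 8 lay between -0.50 (Plin5) and 0.64 (Cidea). Mouse 17 had the lowest Cidea, Plin4, G0s2 and Lpin1 of the KO WDA males, at 1.70, 16.95, 55.1 and 19.5 CPM. Whether the KO difference changed with stage was not called for any gene in edgeR (0% of 13519, 2.88% at an unadjusted p under 0.05, 0 genes by DESeq2). Pparg had the lowest unadjusted p of the members there, with a log2 difference of -0.45 ± 0.21 (unadjusted p-value 0.0409, edgeR adjusted p-value 1).

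HepKO females on WDA share their WT mice with the KO comparison above. Lpin1 had 68.9, 123 and 134 CPM in HepKO females, against 23.2, 39.5 and 21.8 CPM in WT, a log2 difference of 1.94 ± 0.33 (edgeR adjusted p-value 0.170). G0s2 had 347, 314.5 and 324 CPM, all above the WT range, with a log2 difference of 1.43 ± 0.38 (edgeR adjusted p-value 0.308). Cidec had 148, 157 and 118 CPM. WT mice 5 and 6 were below these and mouse 7 above, and the log2 difference was 0.56 ± 0.48 (edgeR adjusted p-value 0.702). Lpin1, G0s2, Pparg, Pnpla2 and Plin5 were the 5 of 9 members whose HepKO and WT values did not overlap, all higher in HepKO, where 18.6% of all genes tested did not overlap. Plin2, Plin4 and Cideb lay between -0.06 and 0.85. No gene was called by edgeR with all mice (0% of 12413, 10.1% at an unadjusted p under 0.05), and DESeq2 called 218. Without WT mouse 7, edgeR called Cidec (log2 difference 1.39, adjusted p-value 0.00235), G0s2 (1.08, 0.00235) and Lpin1 (1.79, 0.0186). The share of all genes called without mouse 7 is not given here, so these calls have no background beside them. With all mice DESeq2 called Lpin1 (adjusted p-value 8.48e-06) and G0s2 (0.0171).

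Between the Cre vectors on WDA, 0.0162% of 12351 genes tested were called and none was a member. Lpin1 was higher in HepKO than in KO females by 0.91 ± 0.25 on the log2 scale (edgeR adjusted p-value 0.611), and Pnpla2, from 201 to 270.5 CPM in HepKO and 180 to 193 CPM in KO, by 0.36 ± 0.12 (edgeR adjusted p-value 0.755). With Cideb, lower in HepKO by 0.13 ± 0.10, these were the 3 of 9 members whose values did not overlap, where 10.9% of all genes tested did not. DESeq2 called Lpin1 (adjusted p-value 0.0359).

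**Figure D3:**
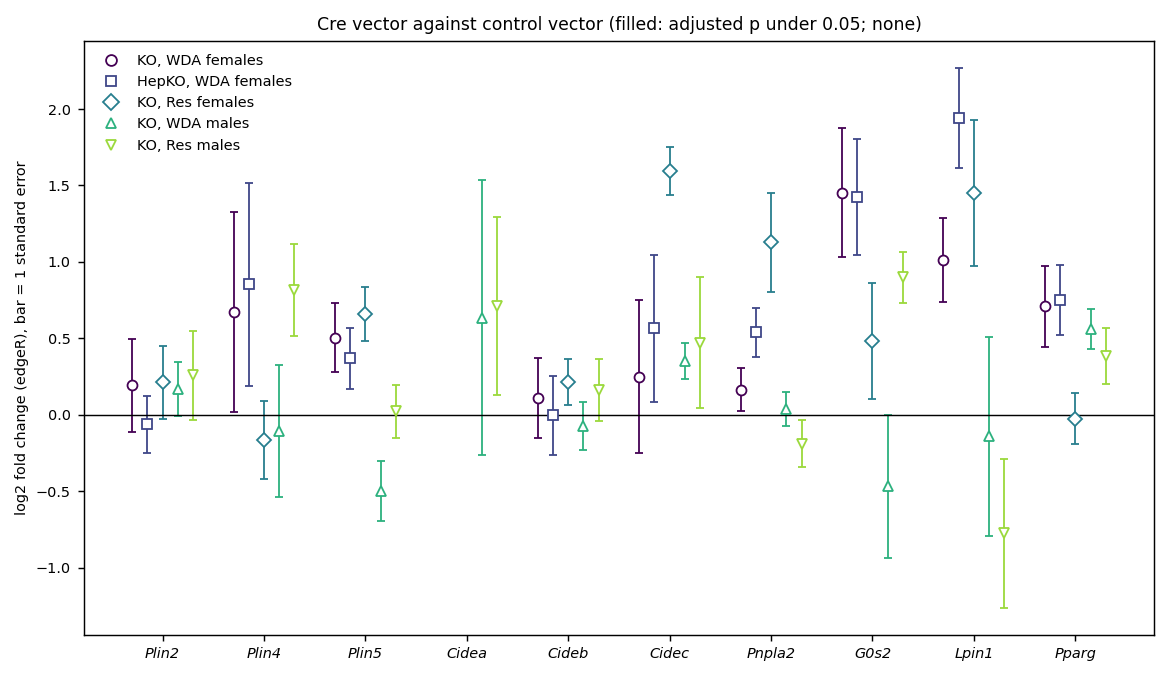
Log2 fold change against WT (vertical axis) for the 10 genes in KO and HepKO comparisons on WDA and at Res, each with 1 standard error; Cidea was not tested in females. No comparison reached an edgeR adjusted p-value under 0.05, and the values for Lpin1 run from -0.78 in Res males to 1.94 in HepKO females.

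Cidea divided the sexes. Over all conditions it had 0 to 0.889 CPM in the 15 females, with 0 to 20 counts per library, and 1.70 to 43.6 CPM in the 12 males, with no overlap. Among WT Res mice, females had 0.113, 0.420 and 0.162 CPM and males 21.2, 15.1 and 5.99 CPM. Among WT females alone Cidea was too low to be tested, so it passed the filter here through the males. The log2 difference was 5.82 ± 0.63 (edgeR adjusted p-value 0.0122). The size and p-value of this difference, and of those that follow for Cidea, rest on a female side near 0 counts. Among WT WDA mice, females had 0.0594, 0 and 0.889 CPM, the last in mouse 7, and males 22.7, 7.99 and 12.4 CPM, a log2 difference of 5.33 ± 0.96 (edgeR adjusted p-value 0.0744). Without mouse 7 the adjusted p-value was 0.000812. At Res, 0.545% of 12661 genes tested were called between the sexes and at WDA 0.851% of 12333. Cidea is also a brown fat marker. Ucp1, the defining gene of brown fat, was at 0 counts in 23 of 27 libraries and reached 8.48 CPM in WT Res male mouse 9. That mouse also had the highest Adipoq (0.424 CPM) and Plin1 (0.953 CPM), and the lowest Cidea of its group. Without it the Cidea difference at Res was 6.17 (edgeR adjusted p-value 0.00127). Without female mouse 1 or 12 or male mouse 7 or 8 the difference was 5.41 to 5.78 and the adjusted p-value 0.0567 to 0.0889. Elovl3, a fatty acid elongase in the same marker list, was also higher in males at Res, by 5.37 ± 0.78 (edgeR adjusted p-value 0.0345).

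Cidec was the other member called between the sexes. The WT mice compared here are those of the stage and KO comparisons above, so the Cidec differences are not independent. Among WT Res mice, females had 17.2, 20.8 and 17.01 CPM and males 54.3, 36.8 and 54.0 CPM, higher in each male. The log2 difference was 1.38 ± 0.19 (edgeR adjusted p-value 0.0262). The adjusted p-value was 0.093 without scaling factors and 0.12 with the shared spread, and without female mouse 1 or 12 or male mouse 7 the adjusted p-value was 0.109 to 0.174. On WDA the difference was -0.40 ± 0.47 (edgeR adjusted p-value 0.7) and turned to 0.42 (adjusted p-value 0.0305) without mouse 7. Plin4, a coat protein of nascent droplets, went the other way at Res, with 153, 90.3 and 119 CPM in WT females and 29.4, 44.4 and 50.9 CPM in WT males. Its log2 difference was -1.55 ± 0.26 (edgeR adjusted p-value 0.0551, and 0.0377 without the filter). Pparg was 12.1 to 14.4 CPM in these females and 6.94 to 7.89 CPM in these males (log2 difference -0.82 ± 0.15, edgeR adjusted p-value 0.0801). G0s2 was 76.3 to 277 CPM in these females and 55.3 to 70.2 CPM in these males. Its log2 difference ran from -1.86 to -1.05 with 1 mouse left out, and 1 of these 6 fits called it. Cidea, Cidec, Plin4, Pparg and G0s2 were the 5 of 10 members without overlap at Res, where 15.4% of all genes tested had none.

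**Figure D4:**
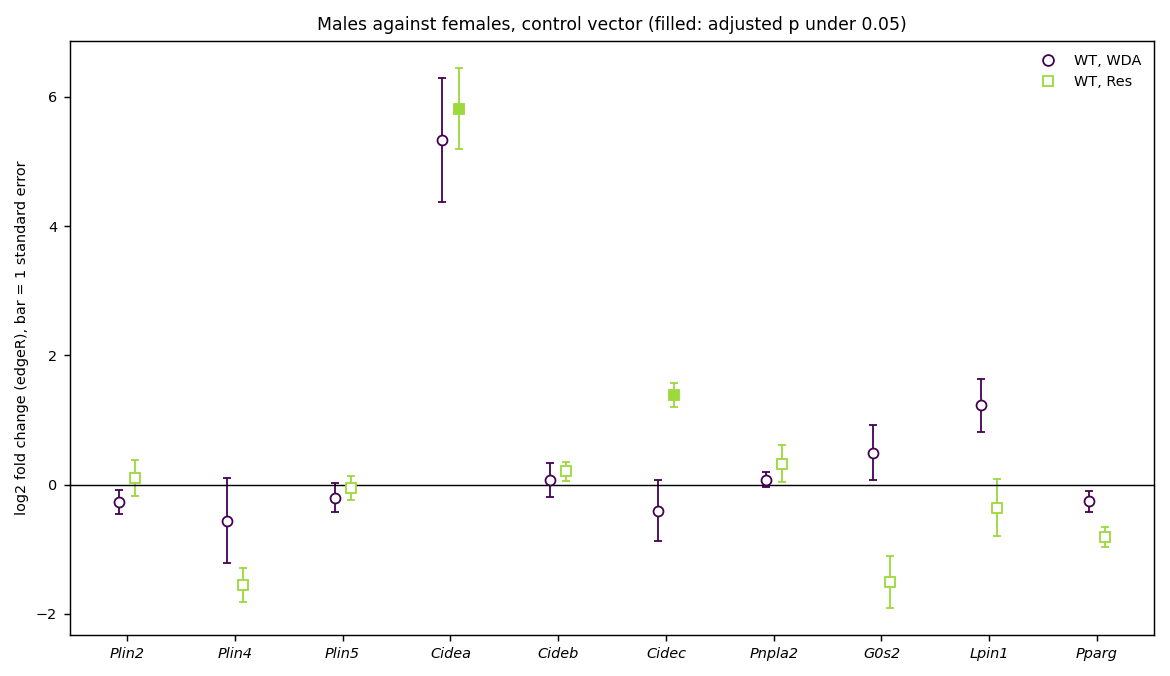
Log2 fold change of WT males against WT females (vertical axis) on WDA and at Res for the 10 genes, each with 1 standard error; filled symbols have an edgeR adjusted p-value under 0.05. Cidea is the highest in both stages, and Cidea and Cidec at Res are the filled symbols. Cidea was at 0 to 20 counts per library in the females.

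The members did not share 1 pattern. Profiles were the 9 condition means of log2(CPM + 0.5), each centred on its own mean, and likeness was the root mean square distance over these 9 conditions. Among the members, Cideb and Plin2 were nearest, at 0.165, followed by Plin5 and Pnpla2, at 0.344. Over 10004 genes with a mean log2 CPM of at least 2, the nearest to Lpin1 were Per1 (0.451), a core clock gene, Ddit4 (0.493), an inhibitor of mTORC1, and Pim3 (0.526), a kinase. The nearest to Cidec were Gal3st1 (0.34), Tlr12 (0.363) and Fam131c (0.367), and to Pnpla2 Slc2a1 (0.095), P2ry2 (0.098) and Por (0.113). To Cidea, over 10005 genes, the nearest were Eif2s3y (0.344), a Y-linked gene, Nat8 (0.503) and Cyp2d9 (0.607). Cidea was near 0 counts in the females, so its distances rest in part on the added 0.5. Pparg was nearest to Tceal8 (0.178), Morc4 (0.187) and Cadm3 (0.194), and G0s2 to Esrrg (0.304), Colec10 (0.31) and Pnldc1 (0.36). The distances grow with the range of the member, which was 3.88 on the log2 scale for Lpin1 and 1.20 for Pnpla2.

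The other genes of the pathway were taken from lists and read in the 24-library comparison of Res with WDA. Of the 62 genes tested in the 6 lists, 17 were called, or 27.4%, beside 29.5% of all genes, so the share was near the background. Lower calls outnumbered higher ones in the lists (15 against 2) and over all genes (2131 against 1852). Of 11 other lipid droplet genes tested, 3 fell and none rose, with a median log2 change of -0.22. Plin3, a further droplet coat, fell by 0.56 ± 0.11, Ldah by 0.41 ± 0.11, and Hsd17b13, a droplet enzyme of hepatocytes, by 0.28 ± 0.09 (edgeR adjusted p-values 0.000566, 0.00835 and 0.028). Of 12 other lipolysis genes, 2 rose and 2 fell. The carboxylesterases Ces1g and Ces1d rose by 0.90 ± 0.15 and 0.66 ± 0.20, and Lipa, the lysosomal lipase, fell by 0.65 ± 0.09 (edgeR adjusted p-values 0.00016, 0.0162 and 3.02e-05). Faf2 fell by 0.24 ± 0.07. Of 12 triglyceride synthesis genes, 4 fell, Mogat2 by 1.28, Mogat1 by 1.09, Agpat1 by 0.49 and Dgat1, which makes triglyceride from diacylglycerol, by 0.27. Mogat2 had under 1 CPM on average in both stages.

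Of 12 genes of fatty acid uptake and binding, 3 fell, where 29.5% of all genes tested were called. Fabp2 fell by 1.17 ± 0.16, Vldlr, a receptor for lipoprotein remnants, by 0.70 ± 0.19 and Acsl5 by 0.34 ± 0.07 (edgeR adjusted p-values 1.31e-05, 0.00649 and 0.00122). Of 6 VLDL assembly genes, Tm6sf2 fell by 0.40 ± 0.08, Surf4 by 0.25 ± 0.07 and Pla2g12b by 0.20 ± 0.07. Of 9 PPAR partners and cofactors, 0 passed in edgeR, 2 had an unadjusted p under 0.05 and DESeq2 called 0. The medians of the 6 lists ran from -0.28 (uptake and binding) to 0.15 (PPAR partners), beside 0.00 over all genes. Within KO females, where 20.4% of genes were called, Hilpda, a droplet protein that inhibits ATGL, rose by 0.81 on the log2 scale and 3 other droplet genes fell. Lpin2 rose by 0.67 and Agpat1 fell by 0.84, and among the PPAR partners Ppargc1b rose by 1.26 and Ppara fell by 0.76. The stage difference of Lpin2 was lower in males than in females, at -1.18 on the log2 scale (edgeR adjusted p-value 0.0368). In the KO and HepKO comparisons with WT edgeR called no gene of the 6 lists. DESeq2 called Agpat1, Hilpda and Ppargc1b in Res females, Agpat1, Fabp5 and Ppargc1b in HepKO females and Cd36 in WDA males, and edgeR with the shared spread called Agpat1 and Hilpda in Res females. Adipocyte markers were read as well, since droplet genes are adipocyte genes. Adipoq, Lep, Retn and Plin1 were at 0 counts in 15, 25, 23 and 24 of the 27 libraries. Fabp4 and Lipe were counted in all 27, at 4.05 to 18.6 CPM and 7.95 to 22.7 CPM. Of the 8 adipocyte markers 4 were tested between the stages. Of these, 2 were called, both lower, and 1 had a positive log2 fold change. Cfd and Car3, which hepatocytes can also express, fell by 3.25 ± 0.74 and 2.15 ± 0.43 (edgeR adjusted p-values 0.00203 and 0.000823).

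**Figure D5:**
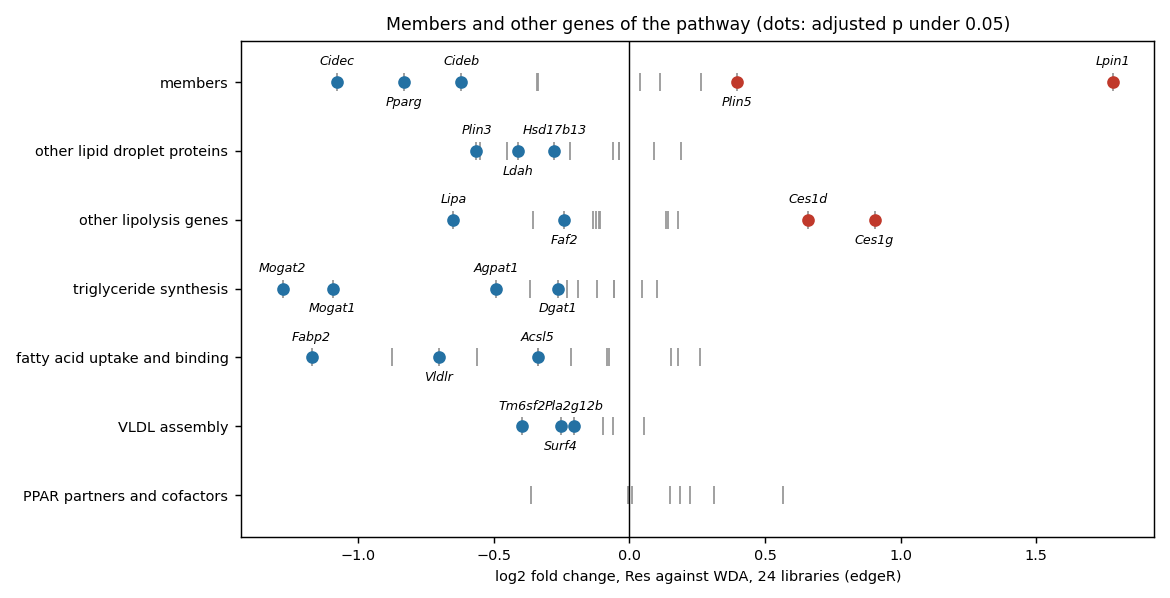
Log2 fold change of Res against WDA over 24 libraries (horizontal axis) for the 10 genes and 6 lists of other genes of the pathway (rows); each grey tick is a gene tested and each labelled dot has an edgeR adjusted p-value under 0.05, red for higher and blue for lower at Res. Of the labelled genes outside the members, Ces1d and Ces1g lie above 0 and the other 15 below.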

How the data were processed

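The authors aligned reads with HISAT and Bowtie2 to GRCm38.p6 and deposited, per gene and library, expected counts, which are estimated and not normalized, and FPKM values, scaled by transcript length and library total. The counting tool and its strand setting are not given in the sources used here. Expected counts were rounded. Genes that a table did not list were set to 0 there. The 27 libraries were grouped by their labels, 3 mice per condition, and mouse numbers do not pair mice.

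Groups were compared in R 4.3.3 with edgeR 4.0.16 (filterByExpr with a minimum count of 10, TMM scaling, quasi-likelihood test, Benjamini-Hochberg adjustment over all genes tested, threshold 0.05). The method was also run on simulated counts with the same spread for every gene and no outlying libraries. That run does not cover the outlying libraries of these data. Each standard error is the fold change over the square root of its F. Each comparison used its own groups, and interactions used 24 or 12 libraries. FPKM served only for levels between genes, without a test. Counts per library (14634602 to 19388251) and 3 mice per condition limit the precision.

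Alternatives were RLE scaling, no scaling factors, DESeq2 1.42.0, no filter, a spread shared by all conditions and leaving out each library. Leaving out 3 or 5 libraries together was chosen after seeing the data. The 10 genes and the lists were chosen with earlier results of these data known. Named genes were Kdm5b, the 10 genes, up to 4 called genes of each list with the largest fold change, and up to 3 genes of mean log2 CPM of at least 2 nearest in profile; markers and libraries that stood apart were named after their values were seen. Marker lists of adipocytes, brown fat, hepatocytes, macrophages, stellate cells and matrix, cholangiocytes, endothelium and lymphocytes were read beside the results. Protein sequences were not used here. A gene of the list of PPAR partners is not reported here.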

Additional observations from a re-analysis of the deposited data

Results flagged for a closer look

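Differences between the sexes or stages were read from the interaction tests, and 6 had an unadjusted p-value under 0.05, none with an edgeR adjusted p-value under 0.05. The stage difference of Lpin1 was lower in males than in females (-2.141 on the log2 scale, adjusted p-value 0.215), and that of Cidec was higher in males by 1.157 (adjusted p-value 0.552). At Res the KO difference was lower in males for Lpin1 (-2.243, adjusted p-value 0.319), Pnpla2 (-1.333, adjusted p-value 0.272) and Plin5 (-0.652, adjusted p-value 0.369). For Pparg the KO difference was lower at Res than on WDA (-0.451, adjusted p-value 1). Conditions of 3 mice are too small for a test of single outlying mice.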

How the results depend on the processing

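Over the 24 livers, 5 members were called between Res and WDA under every alternative fit, and 5 to 6 when 1 library was left out. DESeq2 and the shared spread each called 31.7% of all genes tested there. Elsewhere the number of members called moved with the tool. Shares of all genes called by the same fit stand in brackets. Between stages DESeq2 called 2 members instead of 0 in WT females (3.09%), 4 instead of 3 in WT males (13.8%) and 1 instead of 0 in KO males (0.62%). Between KO and WT at Res it called 3 instead of 0 in females (4.7%) and 1 instead of 0 in males (0.0555%). For HepKO it called 2 instead of 0 against WT (1.76%) and 1 instead of 0 against KO (0.308%). Between the sexes it called 1 instead of 0 on WDA (4.46%) and 5 instead of 2 at Res (2.13%). With a spread shared by all conditions the counts between stages were 3 in WT females (6.21%), 1 instead of 3 in WT males (2.28%), 4 instead of 5 in KO females (11.5%) and 1 in KO males (0.754%). They were 2 between KO and WT Res females (4.95%), and between the sexes 1 on WDA (2.58%) and 1 at Res (1.3%). Without the filter 1 was called between KO and WT Res females, 4 instead of 3 in WT males between stages and 3 instead of 2 between the sexes at Res. Without scaling factors 2 were called between the sexes at Res, with Plin4 in place of Cidec. Shares of all genes called without the filter or without scaling factors are not given here.

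Leaving out 1 library gave 0 to 1 in WT females between stages (1 without mouse 7), 0 to 4 in WT males (0 without WDA mouse 21, 1 without WDA mouse 20), 2 to 6 in KO females (2 without Res mouse 4), 0 to 3 between KO and WT Res females and 0 to 1 for the KO difference between sexes (both highest without WT mouse 1), 0 to 3 for HepKO against WT and 0 to 3 between the sexes on WDA (both highest without WT mouse 7), and 0 to 4 between the sexes at Res. The difference of Cidec between the sexes on WDA ran from -0.709 to 0.418 on the log2 scale, and 0.418, without WT mouse 7, was reversed. Of 2484 member fold changes under an alternative, 2396 counted as the same, 24 became weaker, 44 stronger, 19 moved and 1 reversed. The same meant the same side of the threshold, with direction kept or a change of sign below 1 standard error. Weaker and stronger meant a call lost or gained, and moved a larger change of sign with neither value called. Reversed meant a change of sign with a call. Values not called in either fit count as the same as well. The cause was not tested. Shares of all genes called in the fits that left out 1 library are not given here, so their counts of members have no background beside them.

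No paired analysis was possible because mouse numbers do not tie mice of one group to those of another. Groups of 3 mice limit what the single-sex comparisons can show, and an exact test of 3 against 3 cannot go below 0.1.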
